A study of Mus musculus with 18 samples.

Results

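The genes described here are 42 genes of the cell cycle and of DNA replication, listed by symbol and read from RNA-seq of mouse dorsal root ganglia, the clusters of sensory nerve cell bodies beside the spinal cord. All 42 were found among the 48529 genes of the files, and all 42 were among the 15774 genes that passed the filter on low counts. The study compared 9 libraries from mice given 5TGM1-GFP cells, a mouse multiple myeloma line carrying green fluorescent protein, in the femur (MM) with 9 libraries from mice given vehicle alone (SHAM). All mice were males of the strain C57BL/KaLwRijHsd, in which 5TGM1 cells grow, aged 5 to 7 weeks, and lumbar ganglia L2, L3 and L4 of the operated side were taken on post-surgical day 24. SHAM mice received no cells, so the presence of a tumour and the injection of cells cannot be told apart in this comparison. The labels number the libraries 1 to 9 in each group without saying whether a library pools ganglia or stands for 1 mouse, so p-values measure the spread between these libraries.

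The cell division cycle is driven by cyclins that switch on cyclin-dependent kinases in turn. The Mcm2-7 helicase is loaded at origins before S phase, and cyclin E with Cdk2 helps to start S phase, when the helicase is activated and replication forks form. Cyclins A and B with Cdk1 then drive entry into mitosis. The spindle checkpoint holds back the anaphase-promoting complex, whose action lets the sister chromatids separate and also destroys cyclin B. Sensory neurons have left the cycle for good, while satellite glia, Schwann cells, endothelial cells and immune cells of a ganglion can divide. Tumour cells that reach the tissue can divide as well. In a bulk library, more cells of a type and more RNA per cell cannot be told apart.

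Each library held 19014161 to 21538262 estimated reads assigned to genes. Levels are given as CPM, the read count of a gene scaled to the size of its library and adjusted by the trimmed mean of M-values (TMM), and 3 reads correspond to 0.14 to 0.16 CPM. The markers of sensory neurons were present in every library, with a summed level of 7650 to 9900 CPM in SHAM and 5040 to 10100 CPM in MM. None was called different (0 of 10), but 0 of the 10 had a log2 fold change above 0, and the median was -0.15. The sums in MM5 (5040 CPM) and MM9 (6690 CPM) were below every SHAM library. The libraries MM5, MM8 and MM9 were the 3 highest of all 18 for 41 of the 42 genes, which held for 13.4% of all genes tested, and the 3 highest of MM for 41, against 18%. Fold changes of the roles and of the called genes described in full are given with and without these 3 libraries.

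Expression of the cell cycle genes was higher in MM ganglia. In edgeR's quasi-likelihood test over all genes, with Benjamini-Hochberg adjustment and a threshold of 0.05, 31 of the 42 genes were called higher in MM and 0 lower, where 2.75% of all genes tested were called higher and 0.241% lower. The log2 fold change was above 0 for 41 of the 42, against 48.9% of all genes, and the unadjusted p was under 0.05 in the higher direction for 41, against 13.9%. The median log2 fold change was 1.78 over the 42 genes and 0.00 over all genes tested. Single genes ran from -0.07 for E2f1, a transcription factor that switches on S-phase genes, to 4.27 for Ccnb1, which encodes cyclin B1. The groups overlapped at every gene: for 0 of the 42 was every MM library above every SHAM library, which held for 0.12% of all genes. At 10 of the 42 at least 8 of the 9 MM libraries were above every SHAM library, against 0.875% of all genes, and at 13 all 9 were above the SHAM median, against 4.89%.

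**Figure D1:**
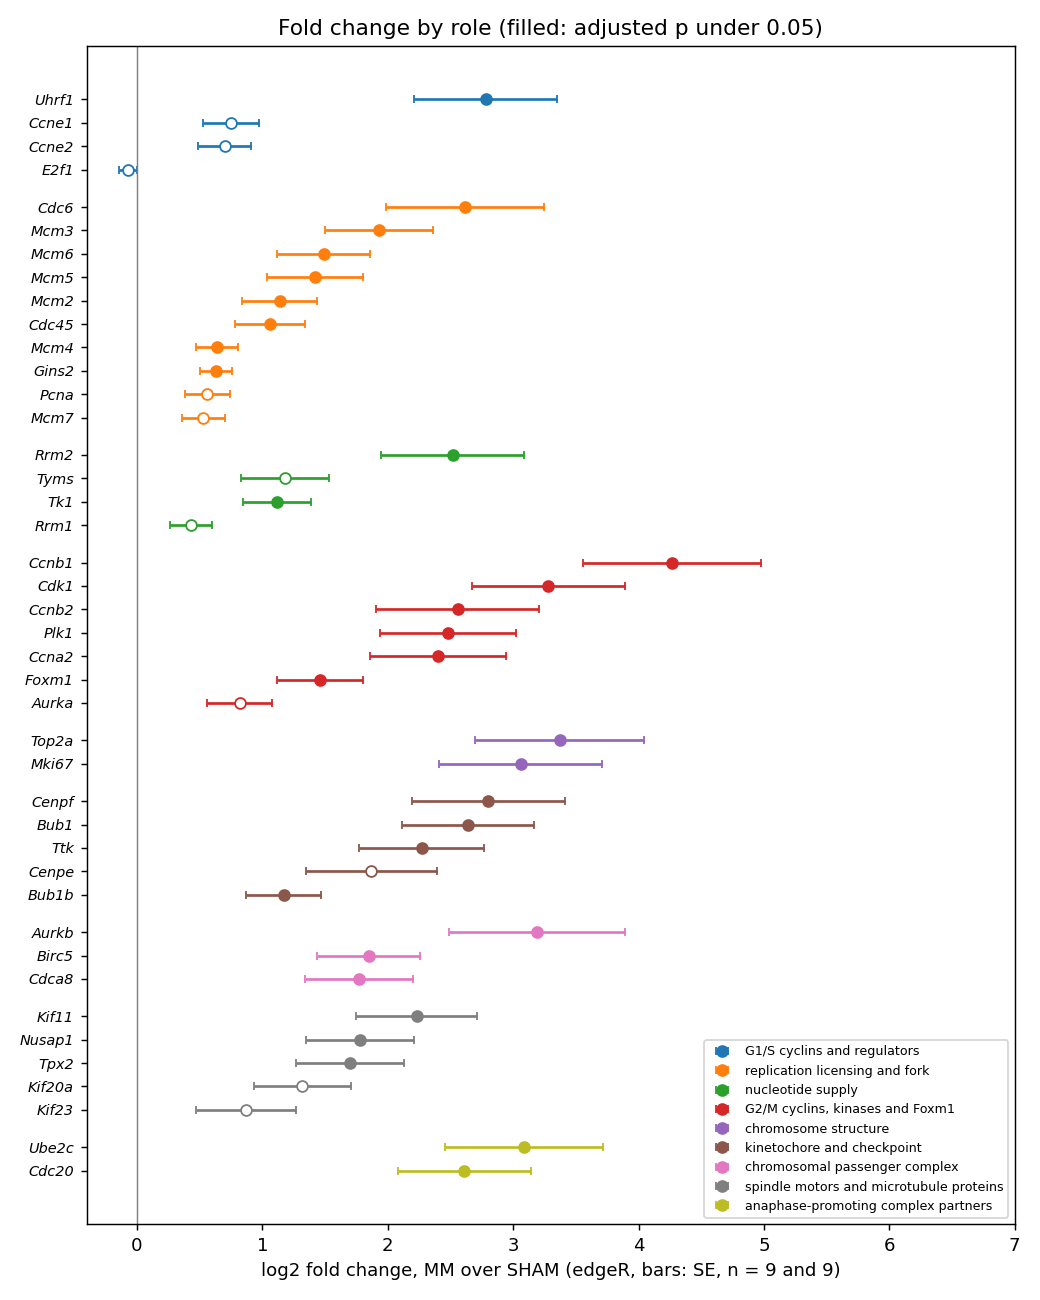
Log2 fold change of MM over SHAM for each of the 42 genes, ordered by role, with bars of 1 standard error from edgeR. Filled and open points mark genes called and not called at an adjusted p under 0.05; 41 of the 42 points lie to the right of 0 and E2f1 lies at -0.07.

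These calls depend strongly on which libraries enter the fit. When any 1 library was left out, the number of the 42 genes called ranged from 5 to 38, while 41 kept a positive fold change and 40 or 41 an unadjusted p under 0.05 in every such fit. Over all genes tested, the number called higher was 433 with all 18 libraries. In these fits it ranged from 75 (without MM5) to 891 (without MM2), so the change was not particular to the 42. The count of the 42 moved by more than 1.5 times without MM5 (5), MM8 (8), MM9 (10), SHAM1 (8), SHAM2 (10), SHAM3 (8), SHAM4 (18), SHAM5 (17), SHAM7 (9), SHAM8 (8) or SHAM9 (11). Only Bub1, Ccnb1, Cdk1, Gins2 and Top2a were called in all 18 of these fits. Without MM5, MM8 and MM9 together, 1 gene was called (Ccnb1, log2 fold change 2.49, adjusted p = 0.0123), where 0.331% of all genes were called higher. In that fit the median log2 fold change was 0.57, and 32 of the 42 had an unadjusted p under 0.05 in the higher direction, against 5.4% of all genes. Without SHAM7 and SHAM8, 1 was called (0.182% of all genes), and without MM2, SHAM5 and SHAM9, 19 (1.44%). Other tests of all 18 libraries with the same 2 groups and no further term called 39 with DESeq2 (3.69% of all genes), 31 with edgeR and DESeq2's size factors (2.54%), 17 with edgeR and no low-count filter (1.02%) and 5 with limma on the deposited normalized values (1.09%). Counting protein-coding transcripts only, edgeR called 25 (2.07%).

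The genes fall into 9 roles, and the fold change differed in size between them. The 18 genes of the S-phase side comprise G1/S regulators (median log2 fold change 0.73, 1 of 4 called higher), replication licensing and fork proteins (1.10, 8 of 10) and nucleotide supply (1.15, 2 of 4). The 24 genes of the mitosis side comprise G2/M cyclins and kinases with Foxm1 (2.48, 6 of 7), chromosome structure (3.21, 2 of 2), kinetochore and checkpoint (2.27, 4 of 5), the chromosomal passenger complex (1.85, 3 of 3), spindle motors and microtubule proteins (1.70, 3 of 5) and partners of the anaphase-promoting complex (2.85, 2 of 2). The role medians without MM5, MM8 and MM9, in the same order, were 0.26, 0.38 and 0.37 on the S-phase side and 0.85, 1.31, 1.11, 0.77, 0.49 and 1.28 on the mitosis side. These medians are descriptions, and the difference between the roles was not tested.

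**Figure D2:**
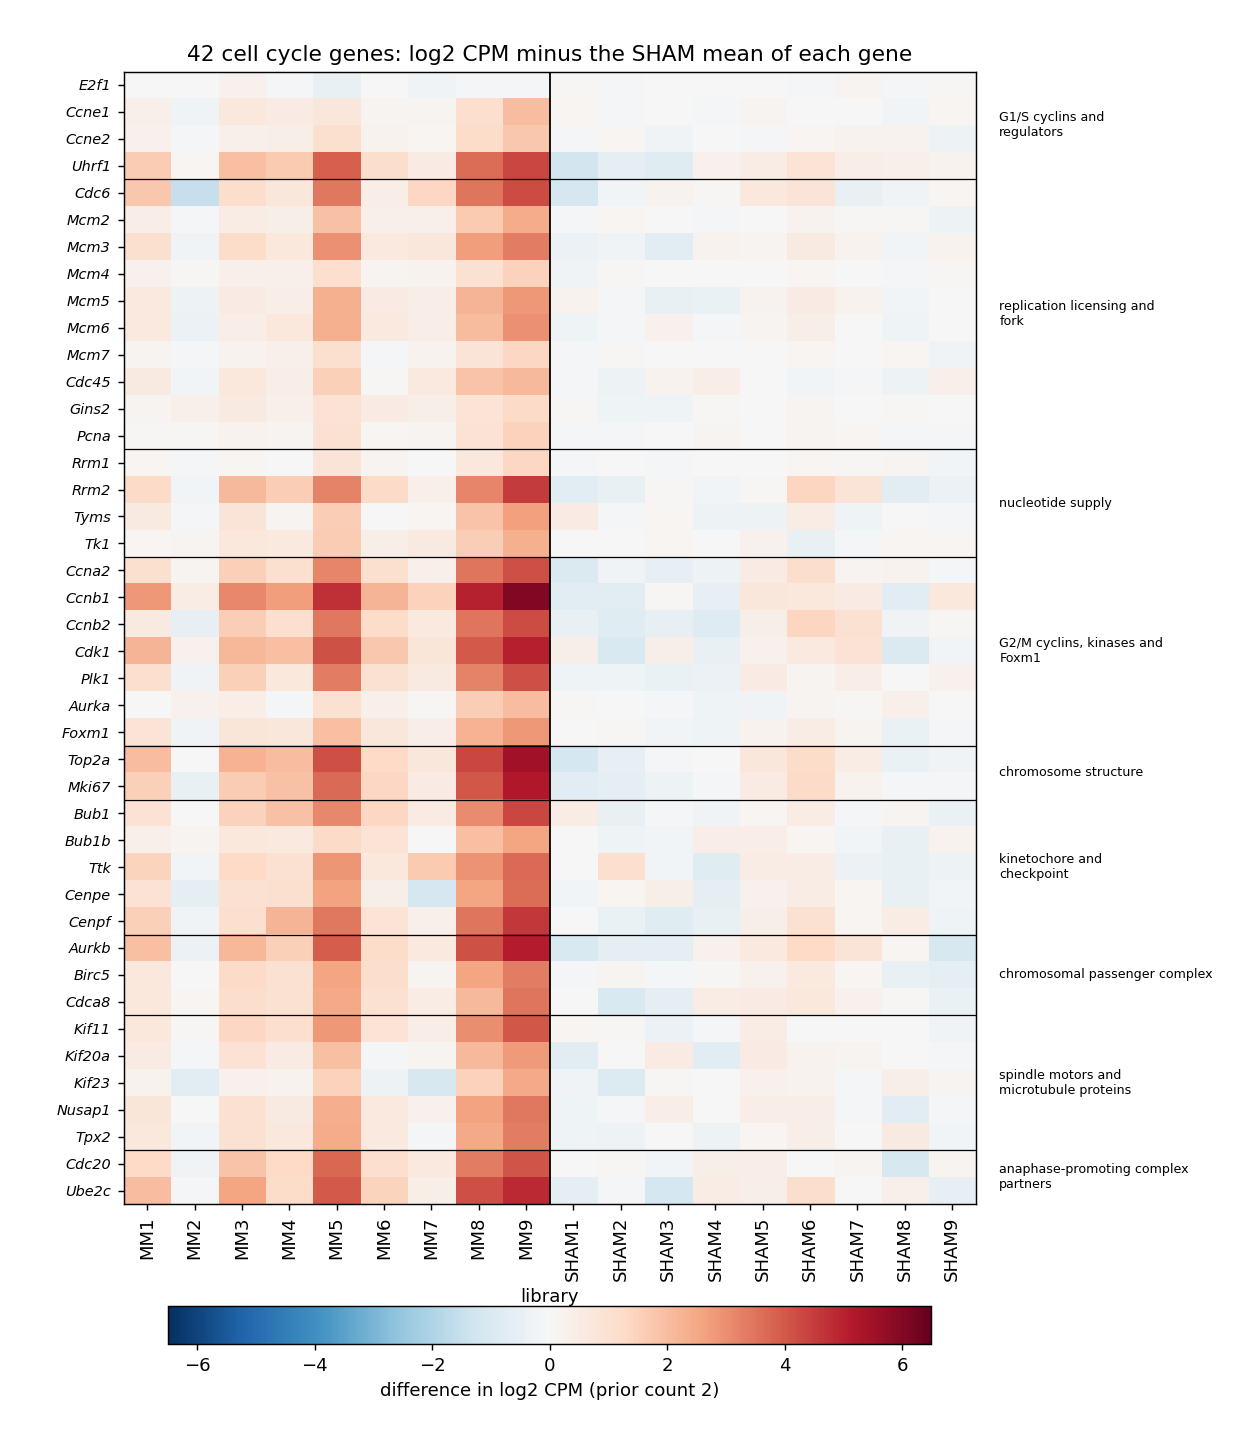
Difference in log2 CPM (prior count 2) of each gene from its SHAM mean, with the 18 libraries as columns and the 42 genes as rows grouped by role. MM5, MM8 and MM9 are raised at 41 of the 42 genes, MM2 resembles the SHAM libraries, and SHAM6 is the highest SHAM library at 23 genes.

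Among the G1/S regulators, Uhrf1 (ENSMUSG00000001228), which keeps DNA methylation in place at replication forks, was the only gene called. It measured 0.267, 0.927 and 1.49 CPM at the lowest, median and highest SHAM library and 0.837, 2.68 and 16.9 CPM in MM. The MM libraries other than MM2 and MM7 exceeded every SHAM library, and those lay within the SHAM range. The log2 fold change was 2.78 (SE 0.57, adjusted p = 0.0194), and 1.28 (adjusted p = 0.151) without MM5, MM8 and MM9. The cyclin E genes, whose products act at the start of S phase, did not pass the test. Ccne1 (ENSMUSG00000002068) ran from 9.76 through a median of 10.7 to 12.3 CPM in SHAM and from 9.11 through 16.0 to 43.9 CPM in MM, and 8 of 9 MM libraries exceeded every SHAM library (log2 fold change 0.75, SE 0.22, adjusted p = 0.0692). Ccne2 (ENSMUSG00000028212) ran from 4.80 through 6.29 to 7.25 CPM in SHAM and from 5.81 through 7.87 to 20.9 CPM in MM, with 6 of 9 MM libraries above SHAM (0.70, SE 0.21, adjusted p = 0.0735).

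E2f1 (ENSMUSG00000027490) was the exception in direction. It measured 30.6, 33.3 and 38.1 CPM at the lowest, median and highest SHAM library and 24.0, 31.2 and 40.5 CPM in MM, with a log2 fold change of -0.07 (SE 0.07, adjusted p = 0.585). The MM libraries were more spread than SHAM, with 4 below and 1 above the SHAM range, and MM5 was the lowest. Its log2 fold change was 0.00 (adjusted p = 0.997) without MM5, MM8 and MM9. In SHAM ganglia E2f1 was the second most abundant of the 42 genes per unit of transcript length.

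Of the 10 replication licensing and fork genes, 8 rose. Gins2 (ENSMUSG00000031821), a subunit of the GINS complex that joins Mcm2-7 in the active helicase, measured 7.03, 8.83 and 9.68 CPM at the lowest, median and highest SHAM library and 9.61, 12.2 and 20.2 CPM in MM. In MM, 8 libraries were above every SHAM library, and the remaining library, MM1 at 9.61 CPM, was just under SHAM6. Its log2 fold change of 0.63 (SE 0.13, adjusted p = 0.0194) was the smallest of the 31 called genes, and Gins2 was the only gene of the 42 at which MM2 exceeded every SHAM library. Mcm3 (ENSMUSG00000041859), a subunit of the helicase, measured 1.66, 3.07 and 4.07 CPM in SHAM and 2.32, 5.67 and 27.9 CPM in MM, with 8 of 9 MM libraries above SHAM (1.93, SE 0.43, adjusted p = 0.0267). Without MM5, MM8 and MM9 the log2 fold change was 0.38 for Gins2 (adjusted p = 0.0604) and 0.71 for Mcm3 (adjusted p = 0.197). Of the other helicase subunits, Mcm2, Mcm4, Mcm5 and Mcm6 were called higher, with log2 fold changes of 1.14, 0.64, 1.42 and 1.49. Cdc6, which loads the helicase, rose by 2.62, and Cdc45, a further part of the active helicase, by 1.06 on the same scale.

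Mcm7 and Pcna did not pass the test. Mcm7 (ENSMUSG00000029730) ran from 7.13 through a median of 8.60 to 9.39 CPM in SHAM and from 8.03 through 9.92 to 21.8 CPM in MM (log2 fold change 0.53, SE 0.17, adjusted p = 0.0910). Pcna (ENSMUSG00000027342), the sliding clamp of DNA polymerase, ran from 28.5 through 30.5 to 35.9 CPM in SHAM and from 32.5 through 36.0 to 87.0 CPM in MM (0.56, SE 0.18, adjusted p = 0.0833). All 9 MM libraries were above the SHAM median of Pcna, and 5 were above every SHAM library.

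Of the genes that supply DNA precursors, Rrm2 and Tk1 rose. Rrm2 (ENSMUSG00000020649), the cell-cycle-regulated subunit of ribonucleotide reductase, measured 0.849, 1.27 and 3.98 CPM at the lowest, median and highest SHAM library and 1.28, 4.49 and 36.1 CPM in MM (log2 fold change 2.52, SE 0.57, adjusted p = 0.0272). In MM 5 libraries exceeded every SHAM library, and SHAM6 at 3.98 CPM lay above the other SHAM libraries. Tk1 (ENSMUSG00000025574), thymidine kinase, measured 1.63, 2.39 and 2.84 CPM in SHAM and 2.61, 3.66 and 11.9 CPM in MM (1.12, SE 0.27, adjusted p = 0.0356). Leaving out MM5, MM8 and MM9 gave 1.10 for Rrm2 (adjusted p = 0.328) and 0.45 for Tk1 (adjusted p = 0.182). Tyms (ENSMUSG00000025747), thymidylate synthase, ran from 1.32 through 1.60 to 2.45 CPM in SHAM and from 1.58 through 2.56 to 11.1 CPM in MM and was not called (1.18, SE 0.35, adjusted p = 0.0708). Rrm1 (ENSMUSG00000030978), the large subunit of the reductase, ran from 14.4 through 16.6 to 18.2 CPM in SHAM and from 15.1 through 17.9 to 42 CPM in MM and was not called (0.43, SE 0.17, adjusted p = 0.146). The subunits of the reductase thus had log2 fold changes of 2.52 and 0.43, and length-scaled SHAM levels of 0.662 to 3.45 TPM (transcript abundance scaled to length and library) for Rrm2 and 7.11 to 9.94 TPM for Rrm1.

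The largest fold change of the 42 belonged to cyclin B1, and 6 of the 7 G2/M genes rose. Ccnb1 (ENSMUSG00000041431) measured 0.15, 0.351 and 0.605 CPM at the lowest, median and highest SHAM library, which is 3 to 13 reads a library and 66 reads over the 9 libraries. In MM it measured 0.49, 2.86 and 27.1 CPM, and 8 of 9 libraries exceeded every SHAM library, with MM2 the exception (log2 fold change 4.27, SE 0.71, adjusted p = 0.00711). Cdk1 (ENSMUSG00000019942), the kinase it activates, measured 0.251, 0.745 and 1.2 CPM in SHAM and 0.739, 3.0 and 22.9 CPM in MM (3.28, SE 0.61, adjusted p = 0.0141). MM2 and MM7 lay within the SHAM range of Cdk1, and the other 7 lay above it. Its log2 fold change was 1.67 (adjusted p = 0.0542) without MM5, MM8 and MM9, where Ccnb1 kept its call. Ccna2, Ccnb2, the polo-like kinase Plk1 and the transcription factor Foxm1 were also called higher, by 2.40, 2.56, 2.48 and 1.46 on the log2 scale. Aurka (ENSMUSG00000027496), a kinase of the spindle poles, ran from 3.32 through 4.18 to 5.09 CPM in SHAM and from 3.90 through 5.25 to 17 CPM in MM and was not called (0.82, SE 0.26, adjusted p = 0.0873).

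**Figure D3:**
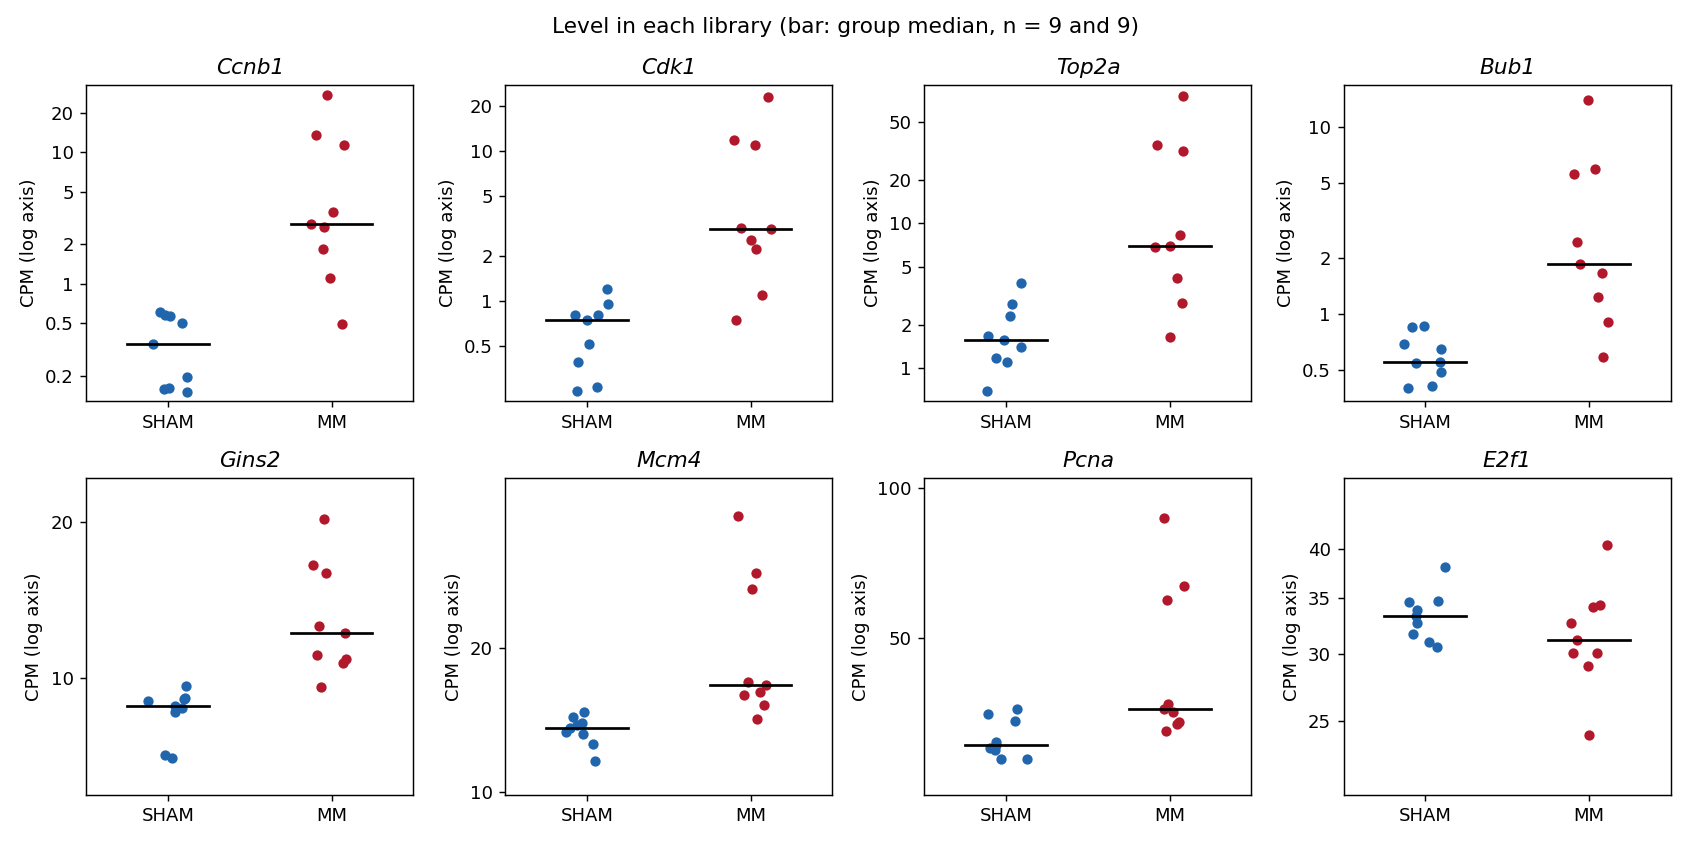
CPM on a log axis in each of the 9 SHAM and 9 MM libraries for selected genes, 1 point a library. For Ccnb1, Cdk1 and Top2a the points of MM5, MM8 and MM9 form the top of each panel, and for E2f1 the SHAM points lie within the wider MM range of 24.0 to 40.5 CPM.

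Both chromosome structure genes rose. Top2a (ENSMUSG00000020914), the topoisomerase that untangles sister chromatids, measured 0.693, 1.56 and 3.88 CPM at the lowest, median and highest SHAM library and 1.63, 6.95 and 75.2 CPM in MM (log2 fold change 3.37, SE 0.67, adjusted p = 0.0193). Mki67 (ENSMUSG00000031004), which encodes the proliferation marker Ki-67, measured 3.20, 4.88 and 12.9 CPM in SHAM and 3.79, 17.4 and 204 CPM in MM (3.06, SE 0.65, adjusted p = 0.0242). At both genes 7 of 9 MM libraries exceeded every SHAM library, and SHAM6 was the highest SHAM library. Leaving out MM5, MM8 and MM9 gave 1.47 for Top2a (adjusted p = 0.141) and 1.16 for Mki67 (adjusted p = 0.243).

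At the kinetochore, Bub1 (ENSMUSG00000027379), a kinase of the spindle checkpoint, measured 0.401, 0.552 and 0.862 CPM at the lowest, median and highest SHAM library and 0.591, 1.86 and 14.0 CPM in MM, with 8 of 9 MM libraries above SHAM (log2 fold change 2.64, SE 0.53, adjusted p = 0.0193). Cenpf (ENSMUSG00000026605) measured 0.301, 0.586 and 1.25 CPM in SHAM and 0.49, 1.92 and 16.6 CPM in MM (2.80, SE 0.61, adjusted p = 0.0242). The values without MM5, MM8 and MM9 were 1.25 for Bub1 (adjusted p = 0.0615) and 1.2 for Cenpf (adjusted p = 0.217). The checkpoint kinases Bub1b and Ttk were called higher as well, by 1.17 and 2.27. Cenpe (ENSMUSG00000045328), a kinetochore motor, ran from 0.976 through 1.70 to 2.20 CPM in SHAM and from 0.670 through 3.19 to 19.8 CPM in MM and was not called (1.87, SE 0.52, adjusted p = 0.0559). Its lowest MM libraries, MM7 and MM2, were below every SHAM library.

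All 3 genes of the chromosomal passenger complex, which corrects faulty chromosome attachments, were called higher. Aurkb (ENSMUSG00000020897), its kinase, measured 0.155, 0.477 and 1.2 CPM at the lowest, median and highest SHAM library and 0.296, 1.92 and 17.8 CPM in MM (log2 fold change 3.19, SE 0.70, adjusted p = 0.0255). Birc5 (ENSMUSG00000017716), which encodes survivin, measured 1.03, 1.71 and 2.59 CPM in SHAM and 1.63, 3.69 and 17.2 CPM in MM (1.85, SE 0.41, adjusted p = 0.0267). Cdca8, which encodes borealin, rose by 1.77. Aurkb had 1.31 (adjusted p = 0.303) and Birc5 0.77 (adjusted p = 0.2) without MM5, MM8 and MM9.

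Of the spindle genes, Kif11, Nusap1 and Tpx2 rose. Kif11 (ENSMUSG00000012443), the motor that pushes spindle poles apart, measured 2.36, 3.16 and 4.38 CPM at the lowest, median and highest SHAM library and 3.25, 6.73 and 52.0 CPM in MM (log2 fold change 2.23, SE 0.48, adjusted p = 0.0242). Nusap1 (ENSMUSG00000027306), a microtubule-bundling protein, measured 1.27, 1.96 and 2.89 CPM in SHAM and 2.12, 3.70 and 23.8 CPM in MM (1.78, SE 0.43, adjusted p = 0.0356). All 9 MM libraries were above the SHAM median of both genes. Leaving out MM5, MM8 and MM9 gave 0.81 for Kif11 (adjusted p = 0.0542) and 0.55 for Nusap1 (adjusted p = 0.303). Tpx2, an activator of Aurka, rose by 1.70. The motors of the central spindle were not called. Kif20a (ENSMUSG00000003779) ran from 1.07 through 1.86 to 2.71 CPM in SHAM and from 1.67 through 2.76 to 13.1 CPM in MM (1.32, SE 0.39, adjusted p = 0.0673). Kif23 (ENSMUSG00000032254) ran from 1.40 through 2.81 to 3.55 CPM in SHAM and from 1.24 through 3.15 to 15.2 CPM in MM (0.87, SE 0.40, adjusted p = 0.209), with MM5, MM8 and MM9 alone above SHAM and a log2 fold change of -0.19 (adjusted p = 0.861) without them.

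Both partners of the anaphase-promoting complex rose. Cdc20 (ENSMUSG00000006398), its activator, measured 0.477, 1.15 and 1.49 CPM at the lowest, median and highest SHAM library and 0.936, 2.83 and 20.5 CPM in MM, with 8 of 9 MM libraries above SHAM (log2 fold change 2.61, SE 0.53, adjusted p = 0.0193). Ube2c (ENSMUSG00000001403), its ubiquitin-conjugating enzyme, measured 0.452, 1.10 and 2.59 CPM in SHAM and 1.03, 4.73 and 34.4 CPM in MM (3.09, SE 0.63, adjusted p = 0.0194). Cdc20 had 1.12 (adjusted p = 0.0923) and Ube2c 1.43 (adjusted p = 0.19) without MM5, MM8 and MM9.

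The sequence before the start of 6 genes is shown, as examples that hold known cell cycle motifs. Top2a, Cdc20, Mki67 and Kif11 belong to the mitosis side, and Mcm6 and the uncalled Rrm1 to the S-phase side. These 6 do not stand for their sides, whose counts are given after the sequences. Genes of late cell cycle are known for a CHR element, bound by the MuvB complexes, beside CCAAT boxes bound by NF-Y, and S-phase genes for E2F sites. RefSeq's table held a promoter for 34 of the 42 genes (assembly GRCm38.p6), and the 250 bases before the start were searched on both strands. CHR was searched as TTTGAA and TTCGAA, the CCAAT box as CCAAT, and E2F as GCGGGAA and GCGCCAAA. Below, matches to any of them are in capitals, read 5′ to 3′ on the strand of the gene.
Top2a: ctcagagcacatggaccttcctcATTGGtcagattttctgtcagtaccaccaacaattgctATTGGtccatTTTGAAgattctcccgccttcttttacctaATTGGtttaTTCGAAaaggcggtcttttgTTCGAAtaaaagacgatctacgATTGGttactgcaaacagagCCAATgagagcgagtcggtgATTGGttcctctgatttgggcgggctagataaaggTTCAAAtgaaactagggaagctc
Cdc20: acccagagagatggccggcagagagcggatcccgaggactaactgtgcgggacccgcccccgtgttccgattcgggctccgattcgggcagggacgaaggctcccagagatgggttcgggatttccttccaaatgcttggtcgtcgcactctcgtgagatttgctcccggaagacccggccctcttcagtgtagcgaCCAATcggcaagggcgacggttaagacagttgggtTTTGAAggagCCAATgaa
Mki67: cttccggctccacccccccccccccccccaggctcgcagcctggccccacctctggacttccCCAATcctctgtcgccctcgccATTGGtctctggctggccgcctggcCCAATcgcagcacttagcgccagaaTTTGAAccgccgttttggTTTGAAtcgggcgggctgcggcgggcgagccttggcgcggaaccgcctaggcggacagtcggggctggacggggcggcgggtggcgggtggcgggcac
Kif11: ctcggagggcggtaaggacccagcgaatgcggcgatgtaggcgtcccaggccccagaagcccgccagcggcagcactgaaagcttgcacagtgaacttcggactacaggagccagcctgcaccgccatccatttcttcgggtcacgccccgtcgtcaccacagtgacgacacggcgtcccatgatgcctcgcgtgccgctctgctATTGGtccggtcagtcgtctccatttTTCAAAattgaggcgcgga
Mcm6: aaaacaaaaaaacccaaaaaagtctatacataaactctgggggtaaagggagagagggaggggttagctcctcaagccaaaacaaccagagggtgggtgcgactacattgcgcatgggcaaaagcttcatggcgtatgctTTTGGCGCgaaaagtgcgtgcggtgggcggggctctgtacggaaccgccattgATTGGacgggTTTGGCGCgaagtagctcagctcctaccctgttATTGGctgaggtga
Rrm1: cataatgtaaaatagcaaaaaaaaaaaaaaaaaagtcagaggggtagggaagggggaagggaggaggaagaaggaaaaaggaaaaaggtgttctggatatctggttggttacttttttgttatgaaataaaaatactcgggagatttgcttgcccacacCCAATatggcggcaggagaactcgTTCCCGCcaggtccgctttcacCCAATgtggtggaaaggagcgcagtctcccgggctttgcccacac
Their positions are chr11:99024190-99024439 (minus strand) for Top2a, chr4:118437344-118437593 (minus) for Cdc20, chr7:135716380-135716629 (minus) for Mki67, chr19:37376132-37376381 (plus) for Kif11, chr1:128359706-128359955 (minus) for Mcm6 and chr7:102441445-102441694 (plus) for Rrm1.

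Top2a held 4 CHR and 6 CCAAT matches, Mki67 2 and 3, Cdc20 1 and 2, and Kif11 1 and 1, with 0 E2F matches in these 4. Mcm6 held 2 E2F matches and Rrm1 held 1, each with 2 CCAAT matches and 0 CHR matches. Over the 34 genes, CHR was matched in 11 (32.4%), against 19.6% of the 27025 genes in the table, in 8 of 19 on the mitosis side and 3 of 15 on the S-phase side. All 11 also held a CCAAT match, a combination found in 7.93% of all genes. CCAAT, with or without CHR, was matched in 27 of the 34 (79.4%), against 37.5%. E2F letters were matched in 6 (17.6%), against 4.81%, and all 6 were among the 15 of the S-phase side. The genes shown are therefore not typical of their sides: Ccnb1, Bub1 and Plk1 of the mitosis side, for example, had no CHR match. By short pieces found in annotated transcripts, the windows of E2f1 and Mcm7 lie wholly within transcripts of the same gene and those of 9 other genes partly, while the 6 shown do not. The bases just after the start were found early in a transcript of the same gene for Top2a, Cdc20 and Rrm1. For Mki67, Kif11 and Mcm6 they were not, so these starts differ from the annotated ones searched. A match here is a description of letters and not a measured binding site.

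Per unit of transcript length, the 42 genes began from very different SHAM levels. In TPM, SHAM medians ran from 0.0917 for Cenpf to 44.2 for Pcna, a 482-fold span, with 12 genes under 1 TPM and 7 above 5 TPM. Every one of the 42 had reads in every SHAM library. The highest SHAM levels were Pcna (36.7 to 48.3 TPM over the libraries), E2f1 (18.5 to 25.7 TPM) and Ccne1 (8.49 to 15.1 TPM), which did not overlap, followed by Mcm7 (6.28 to 10.6 TPM), which overlapped Ccne1. The lowest were Cenpf, Cdc6 (0.248 TPM), Ttk (0.257 TPM) and Ccnb2 (0.317 TPM), and the ranges of the last 3 overlapped. The range of Cenpf (0.0595 to 0.19 TPM) also overlapped those of Cdc6 and Ttk. Across the 42 genes the log2 fold change fell as the SHAM level rose (Spearman's rho -0.81), a description that shares the SHAM values on both axes. The difference of the mean levels did not follow that order (rho 0.22). It ran from -1.90 TPM for E2f1 to 20.7 TPM for Ube2c, with 16.9 TPM for Pcna, 11.2 TPM for Mcm3 and 11.1 TPM for Cdk1. Pcna, which was not called, thus had the second largest difference in mean level.

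**Figure D4:**
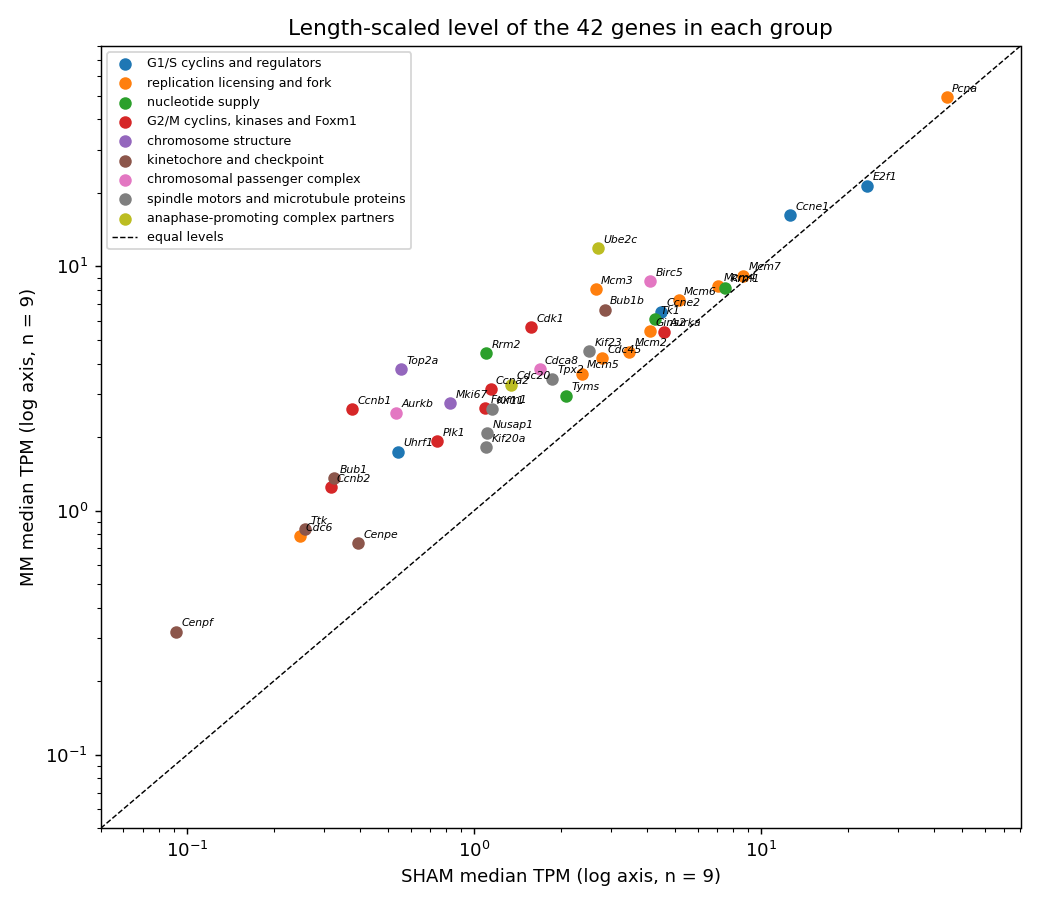
Median TPM of each of the 42 genes in the 9 SHAM libraries against its median in the 9 MM libraries, both on log axes, coloured by role, with a dashed line of equal levels. The SHAM medians span 0.0917 (Cenpf) to 44.2 TPM (Pcna), and every gene lies above the line except E2f1 (23.4 TPM in SHAM and 21.4 in MM).

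The estimated share of reads held by 1 transcript differed between the groups at some genes, as a description of reads pooled over each group. The transcript given is the one with the most reads over all 18 libraries. This choice leans towards MM, which had more reads: 1069 against 151 in SHAM at Uhrf1, 1379 against 393 at Nusap1 and 408 against 82 at Ttk. A higher share in MM is therefore not evidence of a shift. Uhrf1-204 held 14.6% of the reads of Uhrf1 in SHAM and 52.8% in MM. Nusap1-202 went from 25.8% to 60.7% of the reads of Nusap1, and Ttk-201 from 65.5% to 91.8% of those of Ttk. The share of Mcm3-201 was 87.8% in SHAM and 80.3% in MM. Salmon divides reads between transcripts that share sequence, so these shares are estimates, and no test was run on them.

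The MM libraries formed a graded series in these genes. The summed level of the 42 genes was 190 to 244 CPM in SHAM and 198 CPM in MM2, 234 in MM7, 268 in MM6, 282 in MM1, 290 in MM4, 327 in MM3, 707 in MM5, 743 in MM8 and 1310 in MM9. MM9 was the highest MM library at 41 of the 42 genes, with a median of 1.69 times MM8, and MM2 was the lowest at 34. MM5, MM8 and MM9 were each above every SHAM library at 41 genes, where 33.0%, 22.9% and 29.3% of all genes tested were. MM3 was above at 39 genes, MM1 at 31, MM4 at 30, MM6 at 25 and MM7 at 16, against 15.7%, 7.07%, 16.5%, 7.98% and 10% of all genes. MM2 was above at 1 gene, against 6.6% of all genes. The highest SHAM library, SHAM6, was above the other 8 SHAM libraries at 23 genes (54.8%, against 22.5% of all genes). In every MM library except MM2 the mitosis side was further above its SHAM mean than the S-phase side, from 0.43 against 0.34 on the log2 scale in MM7 to 4.07 against 2.19 in MM9. In MM2 the values were -0.11 and -0.09.

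**Figure D5:**
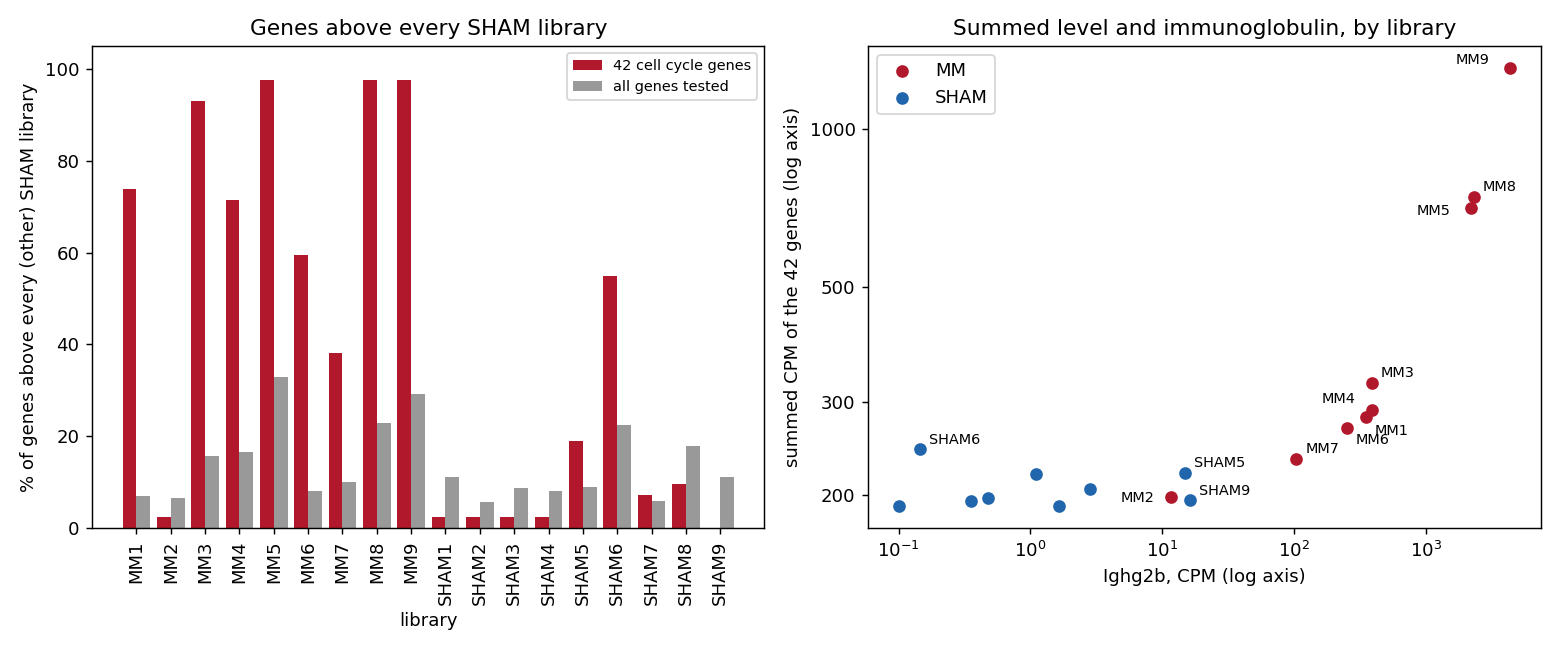
Left, the percentage of the 42 genes (red) and of all genes tested (grey) at which each library is above every SHAM library other than itself; right, the summed CPM of the 42 genes against the CPM of Ighg2b, both on log axes, 1 point a library. MM5, MM8 and MM9 reach 97.6% of the 42 genes on the left, and on the right the SHAM libraries sit at 190 to 244 CPM and MM9 at 1310 CPM.

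Markers of plasma and myeloma cells moved with this series. Of 11 such markers tested, 10 were called higher and 0 lower, and their summed level was 91.2 to 143 CPM in SHAM and 139 to 8510 CPM in MM. Ighg2b (ENSMUSG00000076613), an immunoglobulin heavy chain constant region, measured 0.1, 1.10 and 16.4 CPM at the lowest, median and highest SHAM library. In MM it measured 11.7 CPM in MM2, 104 in MM7, 253 in MM6, 353 in MM1, 389 in MM3, 390 in MM4, 2200 in MM5, 2330 in MM8 and 4370 in MM9 (log2 fold change 8.10, SE 1.27, adjusted p = 0.00681, and 5.89 with adjusted p = 0.0267 without MM5, MM8 and MM9). MM2, the lowest library for most cell cycle genes, was the lowest for Ighg2b and within its SHAM range. In the 8 other MM libraries, the summed CPM of the 42 genes above the SHAM mean was 0.218 to 0.316 times the CPM of Ighg2b above its own SHAM mean. In MM2 the summed CPM minus the SHAM mean was -7.73 and the ratio was -1.03. No such ratio was computed for the markers of other cell types. Igkc, the kappa light chain constant region, measured 11.8 to 3340 CPM in MM. The plasma cell marker Tnfrsf17, named after its values were seen, was near 0, at 0.142 CPM or less in MM. MM3 and MM4 had nearly equal Ighg2b and sums of 327 and 290 CPM. The part of these cells in the rise of the cell cycle genes was not tested.

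Other cell types that can divide were measured the same way. Of the macrophage markers, 6 of 12 were called higher, and their summed level was 85.9 to 260 CPM in SHAM and 138 to 779 CPM in MM, highest in MM5. Ctss and Lyz2, the most abundant over all libraries among the genes of that list, had log2 fold changes of 2.70 (adjusted p = 0.0159) and 0.25 (adjusted p = 0.65). Leaving out MM5, MM8 and MM9, 1 of the 12 was called higher, Ctss (1.22, adjusted p = 0.0491). Of the erythroid markers, 6 of 7 were called lower, with sums of 372 to 3120 CPM in SHAM, highest in SHAM6, and 174 to 361 CPM in MM. The markers of granulocytes (9 tested), T and NK cells (2), satellite glia (8), Schwann cells (10), endothelial cells (8) and fibroblasts (8) had 0 calls in this edgeR test. Only 2 of the 10 T and NK cell genes were tested. In MM5 the summed levels of T and NK cells (14.4 CPM), Schwann cells (18600), endothelial cells (272) and fibroblasts (3530) were above every SHAM library. The highest SHAM sums were 4.84, 14500, 181 and 2480 CPM in that order. T and NK cell sums in MM8 (4.9) and MM9 (10.1) were also above SHAM. Granulocyte (118) and satellite glia (2790) sums in MM5 lay within the SHAM range. No marker of these lists was at 0 in every library of a group. Their part in the result was not tested.

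Other genes of the same pathways, outside the 42 were counted in the same fit. Over 5 lists, 50 of 143 genes tested were called higher and 0 lower, where 2.75% of all genes were called higher. Of the other mitosis genes, 35 of 60 were called higher (median log2 fold change 1.45). They included Cdca3, a mitotic entry factor (log2 fold change 2.38, SE 0.45, adjusted p = 0.0145), and Sgo1, shugoshin, which protects sister chromatid cohesion (2.86, SE 0.55, adjusted p = 0.0164). Of the other replication genes, 11 of 52 were called higher (median 0.44), among them the licensing factor Cdt1 (2.48, SE 0.49, adjusted p = 0.0189) and Dbf4, the activator of the Cdc7 kinase (1.95, SE 0.44, adjusted p = 0.0267). Without MM5, MM8 and MM9, 4 of these genes of the 5 lists were called higher, where 0.331% of all genes were. Among them were Cdca3 (1.12, adjusted p = 0.00957) and Sgo1 (1.43, adjusted p = 0.044), while Cdt1 (1.13, adjusted p = 0.064) and Dbf4 (0.73, adjusted p = 0.157) were not called. At Cdca3 all 9 MM libraries, from 1.87 to 22.8 CPM, lay above every SHAM library, from 1.11 to 1.71 CPM. The same held for Prim1, a primase subunit named after its values were seen, with 4.68 to 21.8 CPM in MM and 3.36 to 4.45 CPM in SHAM. Over all genes tested, every MM library lay above every SHAM library at 0.12%.

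Regulators upstream of the cycle were read from the same fit, in which 2.75% of all genes were called higher. Of the list of D cyclins, Cdk2, Cdk4, Cdk6 and Cdc25a, 1 of 7 was called higher, Ccnd2, which measured 6.58, 8.42 and 21.7 CPM at the lowest, median and highest SHAM library and 10.6, 22.3 and 108 CPM in MM (log2 fold change 1.96, SE 0.43, adjusted p = 0.0249). Cdk2, the kinase partner of cyclin E, had the largest uncalled fold change of that list, with 2.12, 2.70 and 4.60 CPM in SHAM and 1.92, 3.83 and 23.5 CPM in MM (1.48, SE 0.44, adjusted p = 0.0687). Ccnd1 and Ccnd3 had log2 fold changes of 0.18 and 0.25, Cdk4 0.45, Cdk6 0.06 and Cdc25a, the phosphatase that activates Cdk2, 0.32, and none of these was called. Of the Cdk inhibitors and pocket proteins, 1 of 10 was called, the pocket protein Rbl1 (1.5, SE 0.37, adjusted p = 0.0356). The inhibitors Cdkn1a, Cdkn1b, Cdkn1c, Cdkn2a, Cdkn2b, Cdkn2c and Cdkn2d had log2 fold changes of 0.25, 0.03, 0.23, 0.34, 0.05, 0.90 and -0.04, and Rb1 and Rbl2 of -0.06 and -0.15. Of the other E2F and DREAM factors, 2 of 14 were called higher, E2f7, an atypical repressor (1.91, adjusted p = 0.0242), and Mybl2, which acts with MuvB on mitotic genes (2.65, adjusted p = 0.0325). Leaving out MM5, MM8 and MM9 gave 0.83 for Ccnd2, 0.48 for Rbl1, 0.87 for E2f7 and 0.86 for Mybl2, with adjusted p of 0.217, 0.192, 0.161 and 0.424. Of 70 replication-dependent histone genes, 16 passed the filter, and 2 of these 16 were called higher and 0 lower. The called genes were Hist1h2ap and Hist3h2ba, named after their values were seen. Only 6 of the 16 had a log2 fold change above 0, and the median was -0.1. The summed level of the 70 was 135 to 183 CPM in SHAM, and only MM5 (206 CPM), MM8 (201 CPM) and MM9 (233 CPM) lay above that range. Near-identical histone copies share reads, and their counts are uncertain.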

How the data were processed

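Total RNA of whole lumbar ganglia was sequenced in 9 MM and 9 SHAM libraries. Per the submitters' processing notes, reads were quantified with Salmon 1.5.2, with GRCm39 and DESeq2 also named; the index and its options are not given in the sources used here. The deposited files give estimated counts and TPM for each of 137562 transcripts, and a deposited table gives a normalized signal for each gene and library. Estimated counts were summed by gene and rounded; 3620 transcripts without a gene link held 0.85% to 1.339% of the reads and were left out. TPM was summed by gene. The main test was edgeR 4.0.16 (robust quasi-likelihood, TMM, default low-count filter, Benjamini-Hochberg over 15774 genes) in R 4.3.3. On simulated counts for these 15774 genes, the test recovered 82% of 50 genes changed 1.5-fold. It recovered 94% at 2-fold, 94% at 4-fold and 100% at 8-fold, and 8 of its 193 calls were false. These rates cannot be carried over to the measured libraries. Mki67 had an SD of 65.2 CPM in MM and 3.0 CPM in SHAM. Cenpe, Kif20a and Tyms were not called, although their mean CPM in MM was 3.66, 2.51 and 2.27 times that in SHAM. An uncalled gene is therefore not shown to be unchanged. CPM values use TMM factors, and log2 CPM uses a prior count of 2. Alternatives were DESeq2 1.42.0, other size factors, no filter, omitted libraries, a replicate block, limma 3.58.1 on log2(deposited signal + 1), and, chosen after seeing the data, protein-coding transcripts only. Full values are given for the 2 genes of lowest p in each role and for every gene not called, with shorter values for the 2 called genes of lowest p in each other list, every D cyclin, Cdk inhibitor and pocket protein, and the most abundant markers of some lists. The 42 genes and all lists were chosen with earlier results of these data known. Lin54 and Ahsp are not analysed here. No library pair agreed within sampling noise. The result of 1 marker list is not reported here.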

Additional observations from a re-analysis of the deposited data

Results flagged for a closer look

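Within each group of 9 libraries, the highest and lowest CPM of each of the 42 genes was compared with its nearest neighbour by Dixon's gap ratio at the 95% level. Of 84 groups, 14 held a library set apart in this way, 13 of them in MM and 1 in SHAM. The level assumes values of a normal distribution, while the ratio was taken on CPM and not on log2 CPM. The 14 therefore cannot be set against a rate of 5%. These genes also move together, so the 14 are not independent. MM9 was set apart, as the highest library, at Mki67 (204 CPM), Top2a (75.2 CPM), Kif11 (52.0 CPM), Ccne1 (43.9 CPM), Rrm2 (36.1 CPM), Ccnb1 (27.1 CPM), Cdk1 (22.9 CPM), Cenpe (19.8 CPM), Cenpf (16.6 CPM), Cdca8 (16.6 CPM), Kif23 (15.2 CPM), Bub1 (14.0 CPM) and Tyms (11.1 CPM). The SHAM library set apart was SHAM6, at Mki67 (12.9 CPM). MM9 also had the highest Ighg2b, 4370 CPM, and SHAM6 the highest erythroid marker sum, 3120 CPM; their part in these values was not tested.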

How the results depend on the processing

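Without MM5, MM8 and MM9 the log2 fold changes of Kif23 (-0.19) and E2f1 (0.00), neither of them called, changed sign; no other of the 42 changed direction under any alternative. The numbers called higher (31 of the 42, 50 of the other cell cycle genes, 433 of all genes, with 38 of all genes lower) moved as follows. Without the low-count filter they were 17 of the 42 and, for all genes, 20 lower. DESeq2 called 39 of the 42, 84 others, 1133 genes higher and 243 lower. Without MM5, MM8 and MM9 they were 1, 4, 53 and 7; without SHAM7 and SHAM8, 1, 0, 29 and 6; and without MM2, SHAM5 and SHAM9, 19, 30, 229 and 11. limma on the deposited values called 5, 9 and 193 higher. Leaving out each library in turn gave 5 to 38 of the 42, 6 to 79 others, 75 to 891 genes higher and 9 to 139 lower; the cause was not tested. The count of genes called lower stayed 0 for the 42 and for the others in those fits. The median log2 fold change of the 42 (1.78) was 1.31 to 1.90 in those fits, 0.57 without MM5, MM8 and MM9, and 1.32 with limma. With DESeq2's size factors in edgeR 31 of the 42 were called, and with protein-coding transcripts only 25.

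Correlations between libraries sharing a number ran from -0.32 to 0.26 over the 9 numbers. The labels do not say what the numbers mean, and these correlations cannot show that the libraries are unpaired. With the replicate number as a block, 0 of the 42 and 0 of the other cell cycle genes were called (lowest adjusted p 0.059 in edgeR; 39 of the 42 had an unadjusted p under 0.05), 7 genes were higher and 1 lower over all, and the median log2 fold change was 1.26. DESeq2 without the block called 39. Depth limits the low genes: Ccnb1 had 3 to 13 reads in a SHAM library.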
